A study of Mus musculus with 32 samples.

Results

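Matrix proteases and their TIMP inhibitors were described in RNA from the retinal pigment epithelium (RPE) of *rd1* mice, whose rods degenerate because of a mutation in *Pde6b*. The set holds 10 of the 34453 genes in the deposited table. It has 4 inhibitors (*Timp1*, *Timp2*, *Timp3*, and *Timp4*), 3 matrix metalloproteinases (*Mmp2*, *Mmp9*, and *Mmp14*), and 3 ADAMTS proteases (*Adamts1*, *Adamts4*, and *Adamts9*). The members were chosen by name, with their differences between the Nrf2 and the control eyes and between the ages already known. Their fold changes and *P* values are therefore given as a description, and nothing is inferred from how many of them passed a threshold. There were 7 mice at P20 and 9 at P40, labelled *rd1*. Each mouse had been injected in both eyes with the GFP vector AAV-Best1-GFP, so that all 32 eyes carried it. In one eye of each mouse, called the Nrf2 eye, AAV-Best1-Nrf2 was added, which carries human *NFE2L2* under the RPE-specific human Best1 promoter. The eye without it is called the control eye. The RNA came from the eyecup after removal of the retina and was amplified before sequencing. The methods name fewer *rd1* pairs at P20 than the 7 labelled, all of which were used here. The methods also name WT (CD1) pairs at P40, and their number together with that of the *rd1* pairs equals the number labelled *rd1* at P40, so the strain of some P40 mice could not be settled. Every value at P40 and every difference between the ages rests on the labels.

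The RPE lies on Bruch's membrane, a layered sheet of collagen, laminin, and elastin that separates it from the choroid. Matrix metalloproteinases and ADAMTS proteases are zinc enzymes that cut the collagens and proteoglycans of such matrices, and the tissue inhibitors of metalloproteinases (TIMPs) bind and block their active sites. The RPE is a known source of TIMP3, which is held in Bruch's membrane and whose mutations cause Sorsby fundus dystrophy, an inherited macular disease. MMP14 is anchored in the cell membrane and, together with TIMP2, activates the secreted precursor of MMP2, a gelatinase. MMP9 is the other gelatinase, and ADAMTS1, ADAMTS4, and ADAMTS9 cut proteoglycans such as versican and aggrecan.

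The 6 proteases share a zinc-binding signature in their catalytic domain, in which 3 histidines hold the zinc ion. The 33 bases that encode it are shown because they encode the zinc site that TIMPs block in the protein, and because they show how the protease families differ. They were read from GENCODE M21 transcripts (GRCm38), run 5′ to 3′ on the coding strand, and have the histidine codons in capitals.
Mmp2: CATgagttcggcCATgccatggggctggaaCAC
Mmp9: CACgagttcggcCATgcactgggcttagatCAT
Mmp14: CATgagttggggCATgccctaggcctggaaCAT
Adamts1: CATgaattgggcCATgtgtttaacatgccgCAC
Adamts4: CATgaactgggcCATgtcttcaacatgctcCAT
Adamts9: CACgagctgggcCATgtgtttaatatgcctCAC
The signature of *Mmp2* lies in a single exon at chr8:92839279-92839311, that of *Mmp9* at chr2:164951133-164951165, and that of *Mmp14* at chr14:54437627-54437659. In the ADAMTS genes, it is split by an intron, between positions chr16:85799191-85799545 for *Adamts1*, chr1:171253210-171253915 for *Adamts4*, and chr6:92905285-92908493 for *Adamts9*. Within the metalloproteinases, 25 to 27 of the 33 bases were identical between any pair, and within the ADAMTS genes 25 to 28. Between the families, 18 to 21 were identical.

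Promoters were taken from RefSeq (GRCm38.p6), from 250 bases before to 50 after the start site, and were found for 7 of the 10 members. No entry was used for *Mmp2*, *Mmp9*, or *Adamts4*. The motifs searched on both strands were the core of the antioxidant response element to which Nrf2 binds (TGACNNNGC, in 12.4% of 32851 promoters), the AP-1 site (TGANTCA, in 7.81%), and the TATA box (TATAAA, in 13.6%). None of these letters overlap in the 3 promoters shown. Those of *Timp3* and *Adamts1* are shown because these genes had the lower levels described below, and that of *Timp2* because it holds the antioxidant core. Capitals mark the matches, and each sequence reads along the strand of its gene.
Timp2: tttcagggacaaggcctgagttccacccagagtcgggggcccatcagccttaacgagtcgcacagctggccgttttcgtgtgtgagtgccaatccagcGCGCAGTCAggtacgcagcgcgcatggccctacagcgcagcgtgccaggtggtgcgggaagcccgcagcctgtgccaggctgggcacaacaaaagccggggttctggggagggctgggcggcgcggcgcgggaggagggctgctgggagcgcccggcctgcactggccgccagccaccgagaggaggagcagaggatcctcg
Timp3: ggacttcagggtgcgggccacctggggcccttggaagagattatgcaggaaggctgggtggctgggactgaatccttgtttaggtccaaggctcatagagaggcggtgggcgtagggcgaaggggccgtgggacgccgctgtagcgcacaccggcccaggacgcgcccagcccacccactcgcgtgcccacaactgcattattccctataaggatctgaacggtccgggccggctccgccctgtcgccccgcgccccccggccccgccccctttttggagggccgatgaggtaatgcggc
Adamts1: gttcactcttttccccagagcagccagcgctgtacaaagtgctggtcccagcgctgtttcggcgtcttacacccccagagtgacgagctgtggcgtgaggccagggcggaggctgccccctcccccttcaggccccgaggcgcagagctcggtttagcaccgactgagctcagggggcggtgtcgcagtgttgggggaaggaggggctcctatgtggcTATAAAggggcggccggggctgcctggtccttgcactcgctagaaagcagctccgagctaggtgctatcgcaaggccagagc
The *Timp2* window (chr11:118355362-118355661, minus strand) holds the antioxidant core on the opposite strand, starting 152 bases before the start site. The *Timp3* window (chr10:86300162-86300461, plus strand) holds none of the 3 motifs. In the *Adamts1* window (chr16:85803064-85803363, minus strand), a TATA box begins 32 bases before the start site. Of the other members, *Timp4* holds the antioxidant core on its own strand, 207 bases before and 7 bases after the start site, and *Timp1*, *Mmp14*, and *Adamts9* hold none of the motifs.

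The total count ranged from 16548332 to 50542797 per library, and 3 counts, the level treated as the floor, corresponded to 0.0566 to 0.182 CPM, the count scaled to the size of its library. All 11 RPE markers were above the floor in every library. The transgene, counted as human *NFE2L2*, was between 3205 and 10440 CPM in 15 of the 16 Nrf2 eyes and at 1082 CPM in that of P20 mouse 4. It was at most 154.3 CPM in 15 control eyes and at 1098 CPM in that of P20 mouse 3. These last libraries, which belong to different groups, were also the closest of all pairs, with a squared difference of 3.859 times sampling noise against 10.79 for the next pair. Among the members, 7 of their levels differed by less than 10% (for example, 3.73 and 3.76 CPM for *Adamts4*). The main results that involve P20 mice are therefore also given without P20 mice 3 and 4. The control eye of P20 mouse 6 had the lowest level of its group for 6 of the 10 members, and that of P40 mouse 8, the shallowest at P40 with 17721493 counts, for 5. In such bulk RNA, fewer cells of a type and less RNA per cell cannot be told apart.

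In the RPE, the inhibitors *Timp3* and *Timp2* were the most abundant members in all 4 groups, when levels were compared as CPM per kilobase of exon. In control eyes at P20, the median was 372 for *Timp3* and 188 for *Timp2*, against 34.6 for *Adamts1* and 32.5 for *Mmp14*. *Timp1* (4.28) and *Mmp2* (3.66) followed, and *Adamts9* was at 0.775, *Mmp9* at 0.31, *Timp4* at 0.203, and *Adamts4* at 0.134. *Timp2* lay above *Adamts1* and *Mmp14* above *Timp1* without overlap of their ranges. The order of *Adamts1* and *Mmp14* held in 5 of the 7 eyes, and that of *Timp1* and *Mmp2* in 4. In control eyes at P40, *Timp3* (301) and *Timp2* (198) were again highest, *Mmp14* (17) lay above *Adamts1* (9.49) in 9 of 9 eyes, and *Mmp9* was at 0.0841. The exon length used for *Timp3* (8144 bases) sums all of its isoforms, so that its rank against *Timp2* (3896 bases) depends on which isoforms were made.

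**Figure D1:**
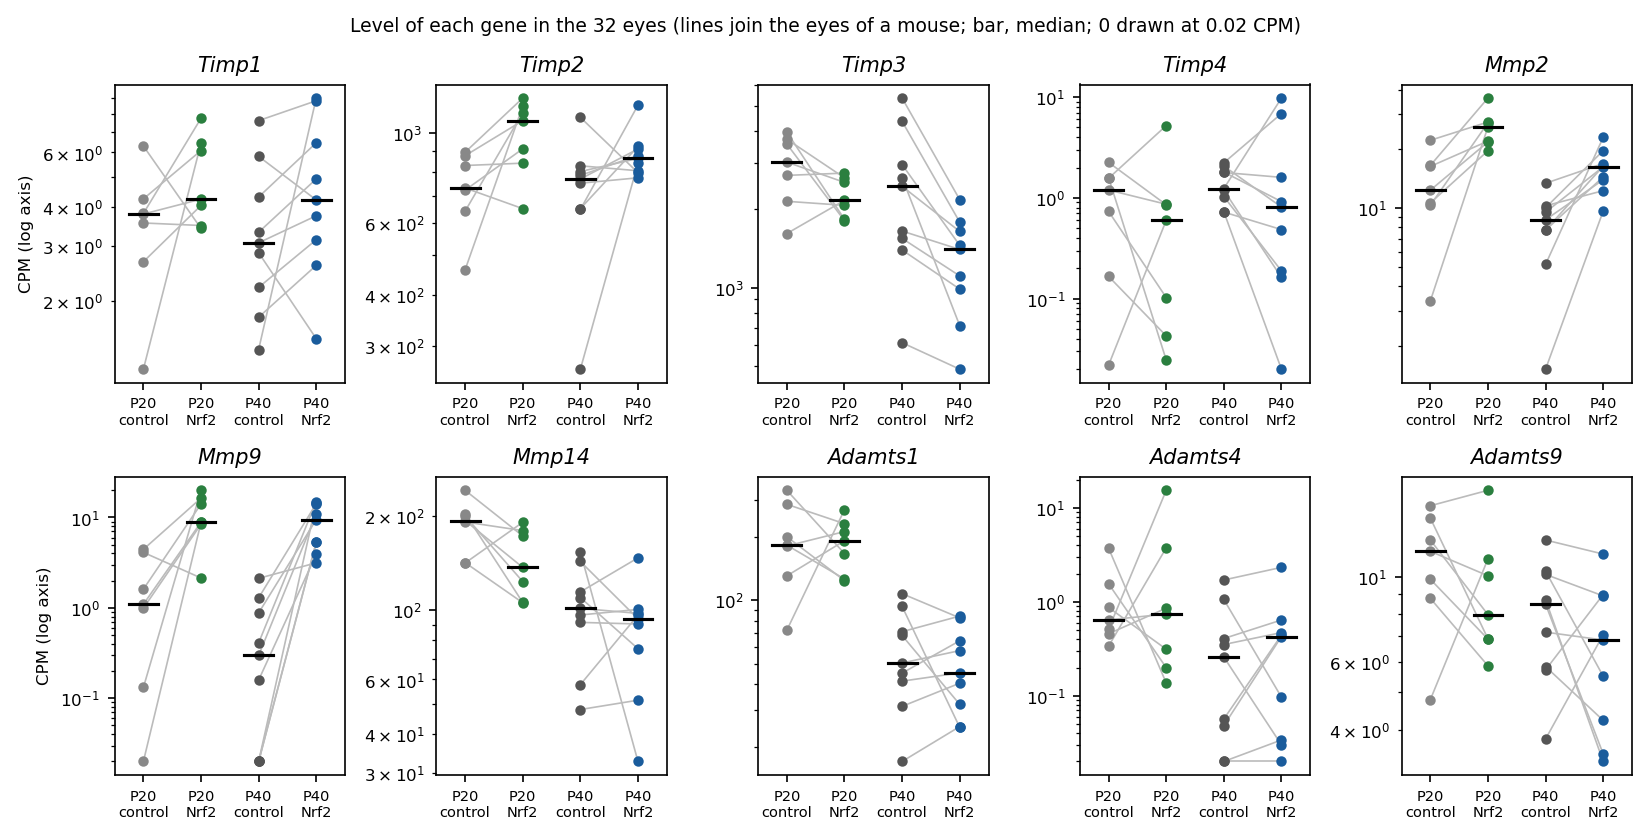
Level of each of the 10 members in CPM (log axis, which differs between panels, with 0 drawn at 0.02) in the 32 eyes, with lines joining the 2 eyes of a mouse and a bar at the median of each group. *Mmp9* and *Mmp2* lie higher in the Nrf2 eye in 9 of 9 mice at P40, *Timp3* lies lower in 9 of 9, and *Adamts1* lies lower at P40 than at P20.

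Between Nrf2 and control eyes at P40, the gelatinase *Mmp9* was called higher and the inhibitor *Timp3* lower by edgeR. *Mmp9* at P20 and the other gelatinase, *Mmp2*, at both ages had higher medians in Nrf2 eyes but did not pass its threshold. *Mmp9* in P20 control eyes had a lowest level of 0 CPM, a median of 1.1, and a highest level of 4.44, whereas P20 Nrf2 eyes ranged from 2.14 through 8.86 to 20. In P40 control eyes, the levels were 0, 0.298, and 2.12 CPM, and in P40 Nrf2 eyes 3.15, 9.49, and 15. At P40, every Nrf2 eye lay above every control eye, a separation in this direction that 1.17% of all tested genes had. At P20, the groups overlapped because the control eyes of mice 1 and 4 reached 4.44 and 4.11 CPM.

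Within mice, the Nrf2 eye had more *Mmp9* in 6 of the 7 P20 mice and in all 9 P40 mice. The exception at P20 was mouse 4, whose Nrf2 eye had the lowest transgene of its group and 2.14 CPM of *Mmp9* against 4.11 in the control eye. In 4 mice, the control eye had 0 counts: P20 mouse 6, with 206 counts in the Nrf2 eye, and P40 mice 1, 2, and 6, with 281, 594, and 166. Against the floor of 3 counts per control library, these Nrf2 eyes were at least 70.7-fold, 73.8-fold, 172-fold, and 70.7-fold higher. In the other P40 mice, the ratio ran from 1.48 in mouse 8 to 36.8 in mouse 5.

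The edgeR log2 fold change of *Mmp9* was 3.26 ± 1.05 (SE, n = 7 pairs) at P20, with an adjusted *P* value of 0.15, and 4.99 ± 0.96 (n = 9 pairs) at P40, with an adjusted *P* value of 0.00967. At P40, it stayed past the threshold of 0.05 in all 15 alternatives that could be fitted, between 3.96 and 5.5. At P20, DESeq2 (3.42, adjusted *P* 0.000507) and limma voom (3.05, adjusted *P* 0.0171) passed it, as did edgeR without mouse 4 (3.84, adjusted *P* 0.0294), and without mice 3 and 4 edgeR gave 4.10 with an adjusted *P* value of 0.0842. *Mmp9* is also made by neutrophils and macrophages. The summed level of 6 neutrophil markers was low in every group (0.198 to 9.79 CPM). Only 2 of the 6 had enough counts to be tested with Nrf2 at each age, and neither was called by edgeR. Of 9 macrophage and microglia markers, 4 were called higher with Nrf2 at P40, where 3.33% of all tested genes were. These were *C1qa*, *C1qb*, *C1qc*, and *Adgre1*, by 1.81 to 2.28 on the log2 scale. Of the 9 markers, 6 had a log2 fold change above 0 and 3 below 0. The summed level of all 9 markers was 113 to 421 CPM (median 304) in P40 Nrf2 eyes and 124 to 480 (median 192) in P40 control eyes. The part of neutrophils and macrophages in the level of *Mmp9* was not tested.

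**Figure D2:**
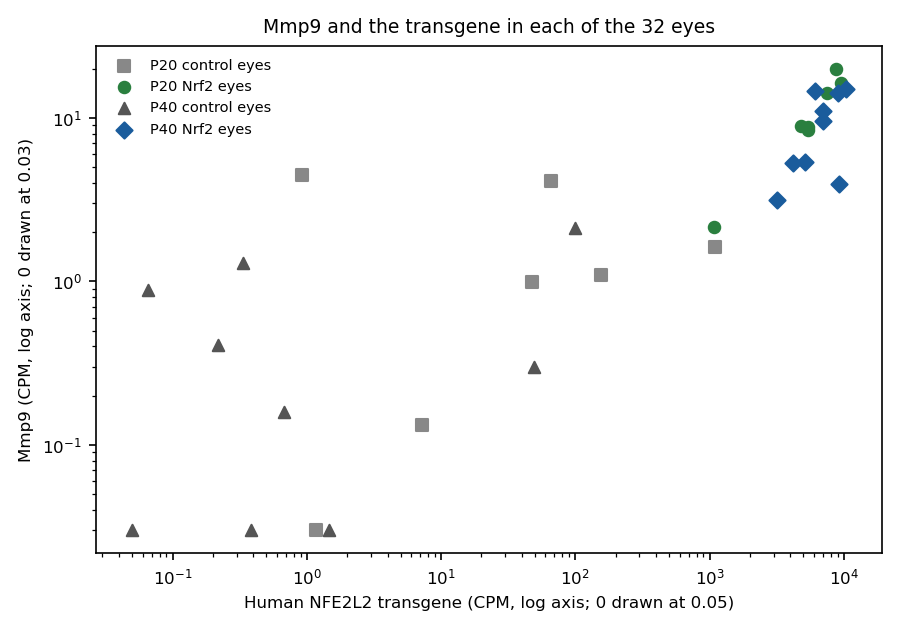
Level of *Mmp9* against the human *NFE2L2* transgene, both in CPM on log axes (0 drawn at 0.05 for the transgene and 0.03 for *Mmp9*), in each of the 32 eyes, with a symbol for each group. The Nrf2 eyes lie at the upper right, except P20 mouse 4 at 1082 CPM of transgene and 2.14 CPM of *Mmp9*, beside the control eye of P20 mouse 3 at 1098 and 1.61 CPM.

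*Mmp2* had a higher level in the Nrf2 eye than in the control eye of every mouse. Control eyes ranged from 3.37 through a median of 12.3 to 22.1 CPM at P20 and from 1.52 through 8.72 to 13.4 at P40. Nrf2 eyes ranged from 19.6 through 25.9 to 36.3 CPM at P20 and from 9.65 through 16.2 to 22.9 at P40. The groups overlapped only slightly at P20, where the highest control eye was that of mouse 3, and more at P40. The log2 fold change was 1.06 ± 0.29 (SE, 7 of 7 pairs higher) at P20 and 1.02 ± 0.27 (9 of 9 pairs higher) at P40. A Nrf2 eye above its control eye in every pair was seen for 5.59% (P20) and 3.55% (P40) of tested genes. The adjusted *P* values of edgeR were 0.0963 and 0.0516, so *Mmp2* did not pass the threshold, whereas those of DESeq2 were 0.00542 and 0.00294 and those of limma voom 0.024 and 0.0242. With at least 10 counts required in every library, edgeR gave 0.0443 at P40. Without P20 mice 3 and 4, the P20 value was 1.34 (adjusted *P* 0.0732), and without mouse 4 alone it passed in edgeR (1.16, adjusted *P* 0.0477). The pairs with the largest differences were P20 mouse 6 (2.92) and P40 mouse 8 (2.63), the mice whose control libraries were lowest for many members. Without them, the fold changes were 0.813 and 0.843. *Mmp2* is also made by fibroblasts, and of 7 fibroblast markers 6 had a log2 fold change above 0 at P20 (list median 0.34) and 7 at P40 (0.63), where *Col3a1* rose (1.13, adjusted *P* 0.046 in edgeR). Their summed level was 109 to 660 and 285 to 973 CPM in P20 control and Nrf2 eyes (medians 403 and 470). At P40, it was 82.3 to 457 and 241 to 690 (medians 271 and 354). Their part in the level of *Mmp2* was not tested.

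*Mmp14*, the membrane-anchored protease, had lower medians in Nrf2 eyes. At P20, control eyes ranged from 142 through 194 to 242 CPM and Nrf2 eyes from 106 through 137 to 191, and at P40 the medians were 101 and 93.9. The Nrf2 eye was the lower one in 6 of 7 pairs at P20 and in 5 of 9 at P40. The edgeR log2 fold changes were −0.42 ± 0.18 (adjusted *P* 0.251) and −0.26 ± 0.25 (adjusted *P* 0.792). At P20, limma voom called it lower (−0.52, adjusted *P* 0.0231), as did edgeR without mouse 4 (−0.58, adjusted *P* 0.0197), while without mice 3 and 4 it did not pass (−0.55, adjusted *P* 0.0952).

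Among the inhibitors, *Timp3* was lower in the Nrf2 eye of every P40 mouse. At P20, control eyes ranged from 1612 through 3033 to 3954 CPM and Nrf2 eyes from 1807 through 2162 to 2752. At P40, control eyes ranged from 614 through 2448 to 5346 CPM and Nrf2 eyes from 485 through 1400 to 2176. The groups overlapped at both ages, since control eyes varied widely, and the difference showed within mice. It was −0.235 to −1.89 on the log2 scale at P40, with all 9 pairs lower, as for 1.06% of tested genes, and −1.11 to 0.424 at P20, with 5 of 7 pairs lower. The fitted log2 fold change was −0.38 ± 0.23 (SE) at P20, with an adjusted *P* value of 0.41 (−0.45 and 0.44 without mice 3 and 4), and −0.89 ± 0.21 at P40, with an adjusted *P* value of 0.0356. The P40 value passed the threshold in 8 of 16 alternatives. It was lost without the block for the mouse (adjusted *P* 0.167) and when any 1 of mice 1, 2, 3, 4, 5, 7, or 9 was left out (0.061 to 0.109), with fold changes of −0.77 to −0.96 over all 9 fits that left out a mouse. *Syn3* overlaps *Timp3* on the opposite strand over 1733 exonic bases, and the strand of the reads was not stated, so these reads could not be assigned with certainty.

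Most RPE markers moved in the same direction as *Timp3* at P40. Of 11, 9 had a log2 fold change below 0 with Nrf2 and 2 above 0. In all, 5 were called lower, where 1.23% of all tested genes were. These were *Rpe65*, *Rlbp1*, *Lrat*, *Rgr*, and *Rdh5*, by 1.06 to 2.82 on the log2 scale, all of which act in the visual cycle. At P20, *Rpe65* alone fell, by 2.17. In P40 control eyes, the summed level of the RPE markers ranged from 11720 through a median of 37110 to 69860 CPM. In P40 Nrf2 eyes, it ranged from 13010 through 20750 to 72050. Their part in the level of *Timp3* was not tested.

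*Timp2*, the inhibitor that also takes part in the activation of MMP2, did not follow *Timp3*. Its level ranged from 461 through 732 to 896 CPM in P20 control eyes, from 651 through 1071 to 1217 in P20 Nrf2 eyes, from 262 through 770 to 1091 in P40 control eyes, and from 775 through 865 to 1169 in P40 Nrf2 eyes. The Nrf2 eye had more of it in 6 of 7 and 7 of 9 mice. The log2 fold changes of 0.40 ± 0.19 (adjusted *P* 0.312) and 0.30 ± 0.22 (adjusted *P* 0.693) did not pass the threshold, nor did that at P20 without mice 3 and 4 (0.49, adjusted *P* 0.313).

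*Timp3* made up less of the summed TIMP level per kilobase in Nrf2 eyes. Its share ranged from 50.6% through 67.7% to 69.4% in P20 control eyes and from 41.3% through 52.7% to 59.5% in P20 Nrf2 eyes. At P40, it ranged from 37.4% through 59% to 75.3% in control eyes and from 20.9% through 36.8% to 56% in Nrf2 eyes. The share was lower in the Nrf2 eye in 6 of 7 mice at P20, by a median of 13.8 percentage points with the exception 2.06 points higher, and in 9 of 9 at P40, by 0.769 to 33.9 points. Because it is a ratio within a library, it does not depend on the scaling between libraries, and since both of its genes were chosen with their values known, it was not tested.

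**Figure D3:**
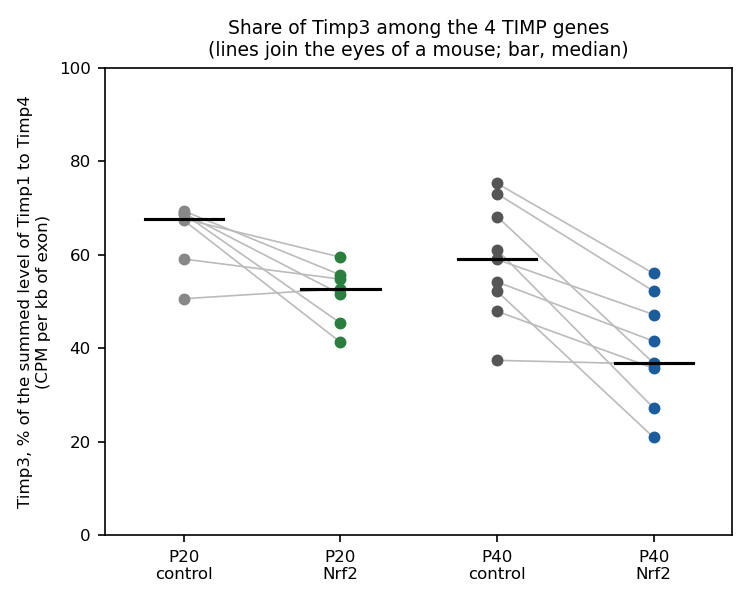
Share of *Timp3* in the summed level of the 4 *Timp* genes (CPM per kilobase of exon, in %), for each of the 32 eyes, with lines joining the 2 eyes of a mouse and a bar at the median. The medians are 67.7% and 52.7% in control and Nrf2 eyes at P20, and 59% and 36.8% at P40.

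*Timp1*, a secreted inhibitor, had group medians of 3.07 to 4.25 CPM and ranged from 1.21 to 8.98 over all eyes. Its log2 fold changes with Nrf2 were 0.49 ± 0.38 and 0.38 ± 0.34 at P20 and P40. *Timp4*, whose expression is restricted to few tissues, was near the floor, with 0 to 303 counts per library and at most 3 counts in 5 eyes. Its fold changes with Nrf2 were −0.85 ± 1.12 and −0.92 ± 0.75. Without mice 3 and 4, the P20 values of *Timp1* and *Timp4* were 0.66 and −0.46. Neither gene separated Nrf2 from control eyes.

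The ADAMTS members did not separate Nrf2 from control eyes at either age. *Adamts1* had log2 fold changes of −0.04 ± 0.34 at P20 and −0.18 ± 0.25 at P40, and *Adamts9* of −0.28 ± 0.27 and −0.36 ± 0.27. *Adamts4* was near the floor, with at most 3 counts in 8 of the 18 P40 eyes, and had −0.03 ± 1.18 and 0.31 ± 0.77. Without mice 3 and 4, the P20 values were 0.03, −0.26, and 0.04 for *Adamts1*, *Adamts9*, and *Adamts4*. On the opposite strand, *Adamts9* shares 1381 exonic bases with *A730049H05Rik* and 424 with *Gm15737*, so that reads there could not be assigned with certainty.

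Over the whole set, none of the 10 members passed the threshold of edgeR at P20, with 3 at an unadjusted *P* value under 0.05, and 2 and 3 members passed it by DESeq2 and limma voom. By edgeR, 3.41% of all 16303 genes tested passed it, 2.93% higher and 0.485% lower. DESeq2 and limma voom called 1951 and 2605 genes in all. At P40, edgeR called *Mmp9* higher and *Timp3* lower, where it called 4.57% of 16686 tested genes, 3.33% higher and 1.23% lower. The median log2 fold change of the members was −0.03 at P20 and 0.06 at P40, against −0.04 and −0.03 over all tested genes.

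**Figure D4:**
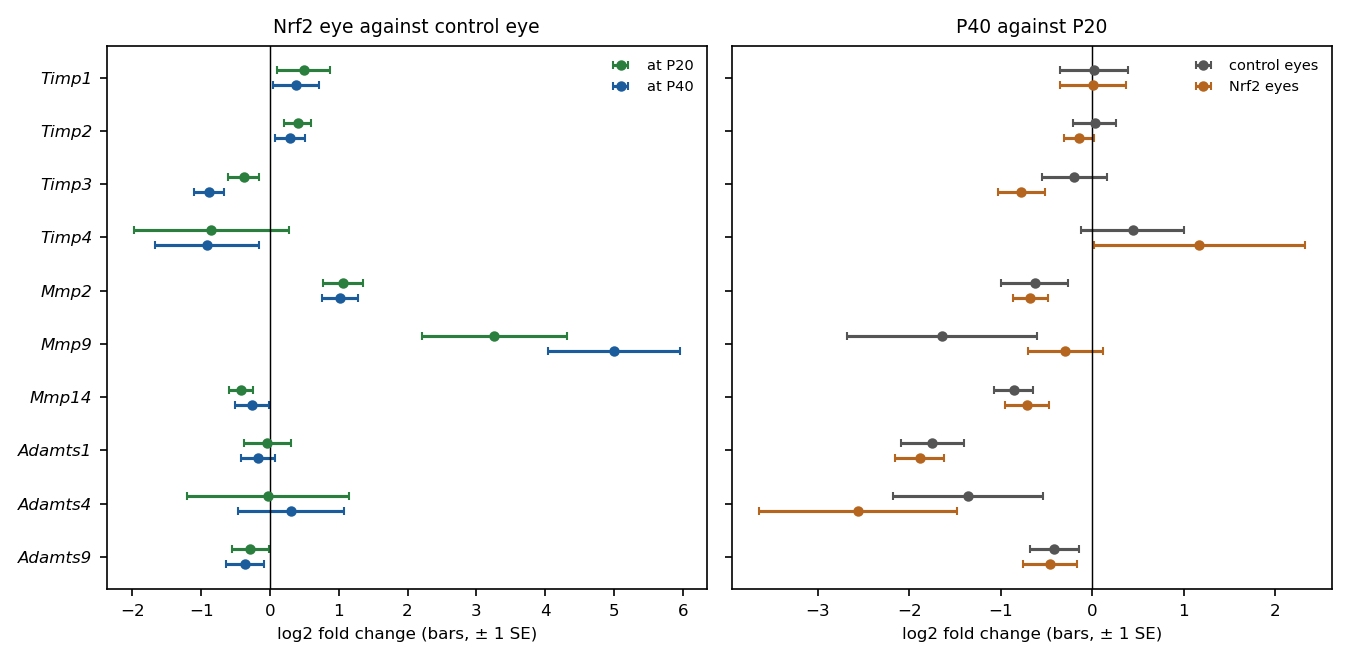
edgeR log2 fold change (± 1 SE) of the 10 members, on the left for Nrf2 against control eyes at P20 and P40, and on the right for P40 against P20 in control and Nrf2 eyes. *Mmp9* and *Mmp2* lie to the right of 0 and *Timp3* to the left in the left panel, and *Adamts1* lies at −1.74 and −1.89 in the right panel.

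Between P20 and P40, the proteases *Adamts1* and *Mmp14* were lower at P40 in control eyes, while *Timp1* and *Timp2* had fold changes near 0. *Adamts1* ranged from 72.1 through 184 to 335 CPM in P20 control eyes and from 17 through 50.3 to 108 in P40 control eyes. In Nrf2 eyes, it ranged from 124 through 193 to 271 CPM at P20 and from 24.8 through 45.1 to 84.2 at P40. In control eyes, 7 of the 9 P40 libraries lay below every P20 library. In Nrf2 eyes, all 9 did, which was so for 0.603% of tested genes.

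The log2 fold change of *Adamts1* with age was −1.74 ± 0.35 (SE, adjusted *P* 0.0121) in control eyes and −1.89 ± 0.27 (adjusted *P* 0.00443) in Nrf2 eyes. It passed the threshold in all 23 alternatives in each, with ranges of −1.56 to −1.90 and −1.67 to −2.04. Without P20 mice 3 and 4, it was −1.77 (adjusted *P* 0.0468) and −1.95 (adjusted *P* 0.0282). The difference with age was thus measured in both treatments, and its difference between them was −0.13 ± 0.43 on the log2 scale.

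*Mmp14* was lower at P40 in control eyes, with a range of 142 through 194 to 242 CPM at P20 and 48.1 through 101 to 154 at P40. It was 106 through 137 to 191 CPM in P20 Nrf2 eyes and 32.8 through 93.9 to 147 in P40 Nrf2 eyes. At P40, 7 of 9 control eyes and 8 of 9 Nrf2 eyes lay below every P20 eye of their treatment. The edgeR log2 fold changes were −0.86 ± 0.21 (adjusted *P* 0.0245) and −0.71 ± 0.24 (adjusted *P* 0.112). In Nrf2 eyes, DESeq2 (−0.71, adjusted *P* 0.0394) and limma voom (−0.62, adjusted *P* 0.022) called it lower. In control eyes, the call was lost without P20 mouse 5 (−0.79, adjusted *P* 0.0576) and without P20 mice 3 and 4 (−0.92, adjusted *P* 0.0666).

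The gelatinases were not called with age by edgeR. *Mmp2* had log2 fold changes of −0.63 ± 0.36 in control eyes and −0.67 ± 0.19 in Nrf2 eyes, where the latter had an adjusted *P* value of 0.11 and was called lower by DESeq2 (−0.67, adjusted *P* 0.0191) and limma voom (−0.84, adjusted *P* 0.00365). *Mmp9* had −1.64 ± 1.04 in control eyes, 4 of which had 0 counts, and −0.29 ± 0.41 in Nrf2 eyes. *Adamts4* had −1.36 ± 0.82 and −2.56 ± 1.08, and *Adamts9* −0.41 ± 0.26 and −0.46 ± 0.30.

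Of the inhibitors, *Timp3* had a log2 fold change with age of −0.19 ± 0.36 in control eyes and −0.77 ± 0.25 (adjusted *P* 0.11) in Nrf2 eyes by edgeR, and 8 of 9 P40 Nrf2 eyes lay below every P20 Nrf2 eye. In Nrf2 eyes, DESeq2 (−0.77, adjusted *P* 0.0289) and limma voom (−0.74, adjusted *P* 0.00938) called it lower. *Timp2* had 0.03 ± 0.23 and −0.15 ± 0.16, and *Timp1* 0.02 ± 0.37 and 0.01 ± 0.36. *Timp4* had 0.44 ± 0.56 and 1.17 ± 1.15, with 0 to 9.76 CPM in P40 Nrf2 eyes.

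In control eyes, 2 of the 10 members were called, both lower, where 14.8% of 16832 tested genes were called, 8.34% higher and 6.42% lower. In Nrf2 eyes, *Adamts1* was called, where 0.502% of 16745 tested genes were called, 0.167% higher and 0.334% lower. Whether the Nrf2 effect differed with age was tested directly, and it was not called by edgeR for any member, none of which had an unadjusted *P* value under 0.05 or passed by DESeq2 or limma voom, and 0.00557% of 17959 tested genes were called. It was 1.68 ± 1.46 for *Mmp9*, −0.50 ± 0.30 for *Timp3*, and −0.04 ± 0.41 for *Mmp2*. The comparisons of Nrf2 and of age share the same eyes and are not independent of each other. All P20 sample names belong to one lettered series and all P40 names to another, and what these series mark cannot be told apart from age.

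Matrix genes were lower at P40 alongside these proteases. Of 37 collagens, laminins, and other components of basement membranes and Bruch's membrane, 15 fell in control eyes, where 6.42% of all tested genes fell. A log2 fold change below 0 was seen for 36 of the 37, against 50% of all tested genes. The list median was −0.72, against 0 over all tested genes. The type IV collagens *Col4a2* (−2.29 ± 0.25, SE, adjusted *P* 0.000389 in edgeR) and *Col4a5* (−2.15 ± 0.25), elastin (*Eln*, −2.20 ± 0.27), the fibrillin *Fbn2* (−2.13 ± 0.57), and *Lox* (−1.77 ± 0.51), which cross-links collagen and elastin, had the largest differences. *Col4a2* went from a median of 58.2 CPM to 9.8, and *Eln* from 36.6 to 8.59. In Nrf2 eyes, 5 of 37 fell (*Col4a2*, *Col4a5*, *Lamb1*, *Lamc1*, and *Eln*), where 0.334% of all tested genes fell. The list median there was −0.73. Without P20 mice 3 and 4, 7 and 2 fell, with medians of −0.77 and −0.78, and the calls in control eyes ranged from 9 to 20 when 1 library was left out.

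Of the other ADAMTS and ADAMTS-like genes, 6 of 20 tested fell in control eyes with age, where 6.42% of all tested genes fell. The list median was −0.52. The largest differences were those of *Adamts16* (−2.59), *Adamts2* (−1.39, a procollagen N-proteinase), *Adamts15* (−1.20), *Adamts10* (−0.96), and *Adamts5* (−0.95). These calls depended on single libraries, ranging from 0 to 6 when 1 library was left out, and none remained without P20 mice 3 and 4. In Nrf2 eyes, *Adamts2* (−1.62) and *Adamts16* (−2.37) fell, of 19 tested, where 0.334% of all tested genes fell. This count ranged from 0 to 3 when 1 library was left out and was 0 without P20 mice 3 and 4.

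Of 10 other metalloproteinases tested in control eyes, *Mmp15*, a membrane-anchored relative of *Mmp14*, fell by 1.82 on the log2 scale, and the stromelysin *Mmp3* rose by 2.95, from a median of 0.254 to 1.45 CPM. In Nrf2 eyes, *Mmp17* fell by 2.63, with an adjusted *P* value of 0.04996. The collagen chaperone *Serpinh1* fell in both treatments, by 1.73 and 1.60, as did the procollagen C-proteinase *Bmp1*, by 0.99 and 1.13. In control eyes, *Adam10* and *Pcsk5* also fell, by 0.78 and 0.98, and the hyaluronan link protein *Hapln3* had −1.3. *A2m* rose by 1.35, and the C-proteinase enhancer *Pcolce* by 1.07. By list, 2 of 10 other metalloproteinases and 2 of 12 ADAM and astacin genes were called in control eyes. So were 2 of 11 genes of plasminogen activation and serpins, 3 of 14 other regulators, and 1 of 13 proteoglycan genes. Of all tested genes, 14.8% were called there. In Nrf2 eyes, 1 of 9, 1 of 12, and 1 of 11 were called in the first 3 of these lists, where 0.502% of all tested genes were. Without P20 mice 3 and 4, none of the other metalloproteinases or of the ADAM and astacin genes was called with age, and in control eyes 1 gene of plasminogen activation and serpins was.

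**Figure D5:**
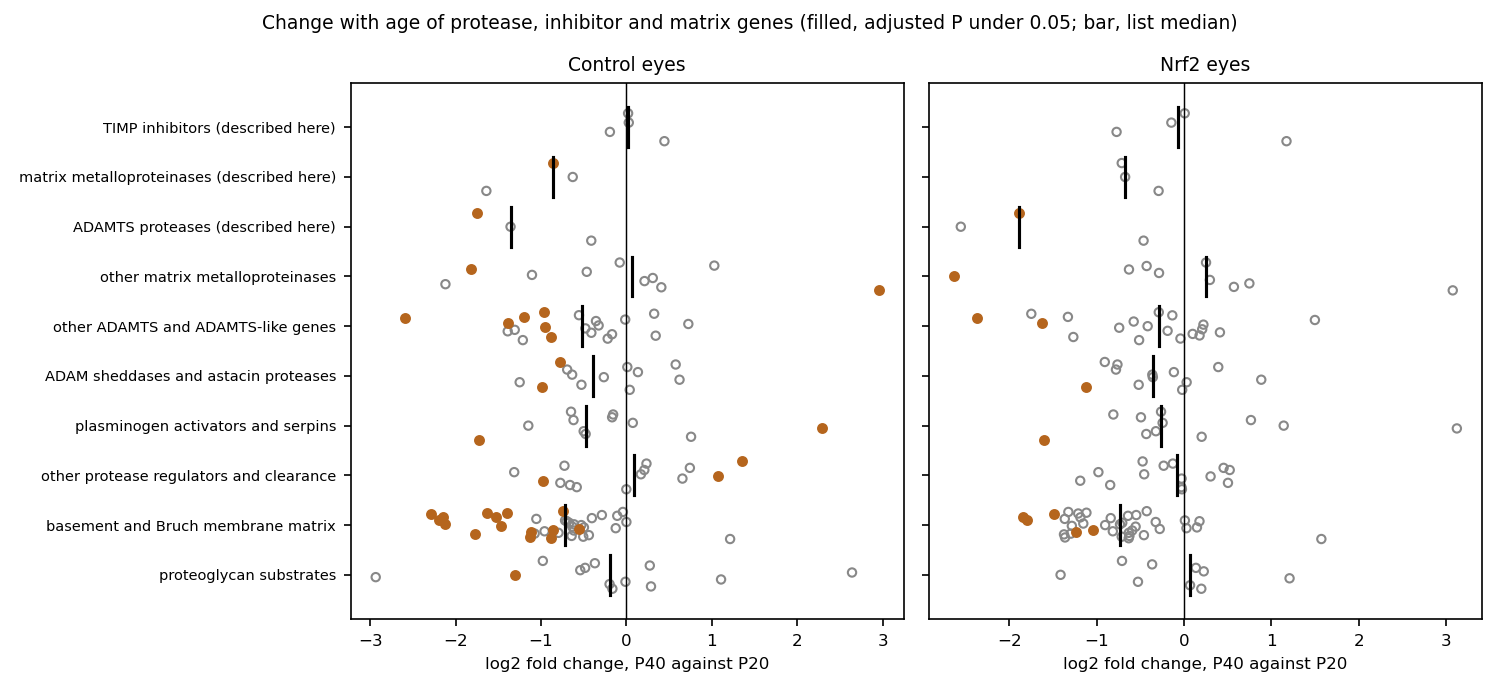
edgeR log2 fold change of P40 against P20 for every tested gene of the 3 member families and 7 other lists, in control eyes on the left and Nrf2 eyes on the right. Filled points passed an adjusted *P* value of 0.05 and bars mark the median, which is −0.72 and −0.73 for the basement and Bruch membrane list.

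Fibroblast and mural markers were lower with age too. In control eyes, 4 of 7 fibroblast markers fell (*Col1a1*, *Col1a2*, *Col3a1*, and *Pdgfra*, by 1.06 to 2.47 on the log2 scale). The summed level of the 7 was 109 to 660 CPM (median 403) at P20 and 82.3 to 457 (median 271) at P40. Of 7 mural markers, 2 fell (*Myh11* and *Notch3*), where 6.42% of all tested genes fell. In Nrf2 eyes, the mural marker *Myh11* fell (−2.76, adjusted *P* 0.0223 in edgeR). No fibroblast marker was called there by edgeR, with summed levels of 285 to 973 CPM (median 470) at P20 and 241 to 690 (median 354) at P40. RPE markers went the other way in control eyes. Of 11, 10 had a log2 fold change above 0 and 1 below (list median 0.63). *Ttr* alone was called higher (2.20), where 8.34% of all tested genes were. Their summed level had a median of 15530 CPM at P20 and 37110 at P40. In Nrf2 eyes, 5 were above 0 and 6 below, with medians of 17890 and 20750 CPM. The part of these cell types in the levels of *Adamts1*, *Mmp14*, and the matrix genes was not tested.

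Among the other genes of these pathways, a few were called with Nrf2. *Serpine2*, an inhibitor of serine proteases, rose at both ages (0.97 ± 0.19 and 1.13 ± 0.23, SE, on the log2 scale), and so did *Adam23*, a relative of the sheddases that lacks an active site (3.06 ± 0.45 and 2.87 ± 0.30). *Adam23* had medians of 24.2 and 212 CPM in control and Nrf2 eyes at P20, and of 20.4 and 212 at P40. At P20, *Adam9* (1.00), the broad protease inhibitor *A2m* (2.33), and *Pcolce* (0.86) rose, and the proprotein convertase *Pcsk6* fell by 1.48. At P40, *Adamtsl1*, which has no protease domain, rose by 1.78, and the collagen *Col4a4* fell by 0.75.

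By list, 2 of 12 ADAM and astacin genes were called with Nrf2 at P20 and 1 of 12 at P40, 1 of 11 genes of plasminogen activation at each age, 3 of 14 other regulators at P20, 1 of 18 other ADAMTS and ADAMTS-like genes at P40, and 1 of 37 matrix genes at P40, where 3.41% and 4.57% of all tested genes were called at P20 and P40. Without P20 mice 3 and 4, the P20 calls were 1 higher and 2 lower among the other regulators, in place of 2 and 1, and 1 gene of plasminogen activation was also called lower. No other metalloproteinase of 9 was called by edgeR at either age, and DESeq2 called 1 of them higher at P20 and 1 in each direction at P40. DESeq2 called 1951 and 1380 genes in all at these ages. *Impg1* and *Impg2*, proteoglycans of the matrix around photoreceptors, fell at P40 (−4.84 and −3.36). Photoreceptor markers moved with them, and the summed level of 7 cone markers was 268 to 2087 CPM in P40 control eyes and 28.2 to 307 in P40 Nrf2 eyes. The part of photoreceptor RNA in these levels was not tested.

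The genes most like each member were taken as those with the highest Pearson *r* of log2 CPM over the 32 eyes, among 11794 genes with a mean of at least 2. The eyes share mice, groups, and sequencing depth, so these values are a description. *Timp3* was most like *Flvcr2* (0.963), *Vasn* (0.961), and *Aco1* (0.956), and *Adamts1* most like *Trpm1* (0.954), *Fam129a* (0.949), and *Col4a5* (0.941), the last of which is in the matrix list. *Mmp9* was most like *Nefm* (0.932), *Uchl1* (0.927), and *Kcnab3* (0.919). For *Mmp14*, *Efnb1* (0.939), *Myadm* (0.922), and *Casp2* (0.922) came first, for *Mmp2* *Ipo11* (0.865), *Cfl1* (0.858), and *Vstm4* (0.848), and for *Timp2* *Tusc3* (0.918), *Vegfb* (0.907), and *Adi1* (0.865). *Timp1*, *Timp4*, *Adamts4*, and *Adamts9* had no gene above 0.855, with *1500015O10Rik* (0.855), *Cyba* (0.828), and *Irak1bp1* (0.825) nearest to *Timp1*. *Slc1a3* (0.762), *Kif5a* (0.762), and *Mapt* (0.735) were nearest to *Timp4*, *Cnp* (0.731), *Acsl4* (0.721), and *Arid2* (0.718) to *Adamts4*, and *Bnc2* (0.713), *Tead2* (0.705), and *Slit2* (0.698) to *Adamts9*.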

How the data were processed

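RPE RNA of both eyes of 16 mice was sequenced, 7 mice at P20 and 9 at P40. The authors deposited estimated counts per gene, as whole numbers and without normalization for library size. Their methods name STAR with featureCounts and, in parallel, Salmon (0.9.1 in the submitters' processing notes) with tximport, on mm10; which of these gave the deposited estimated counts is not stated. The 32 libraries came from 2 sequencing runs to which they are not assigned, so that no run was fitted. The names of all P20 samples begin with M and those of all P40 samples with A, so that whatever these letters mark cannot be told apart from age.

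Genes were kept by filterByExpr, normalized with TMM, and tested with the quasi-likelihood test of edgeR 4.0.16 in R 4.3.3, with the mouse as a block between eyes. *P* values were adjusted by Benjamini-Hochberg over all tested genes, with a threshold of 0.05. CPM used TMM-scaled library sizes, and log2 CPM a prior count of 2. The eyes of a mouse were paired by the labels. As a check, deviations from the group means were correlated: the mean *r* between eyes of the same mouse was 0.0213 (P20) and 0.099 (P40), that between eyes of different mice was −0.000519 and −0.00632, and 3 mice of each age exceeded 0.1. Gene models came from GENCODE M21 (GRCm38). Drawings used matplotlib 3.10.9.

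Alternatives were DESeq2 1.42.0, limma 3.58.1 voom with quality weights, RLE scaling, no filter, at least 10 counts in every library, robust dispersion, no block, each mouse left out, and fits without P20 mice 3 and 4. The tests were checked on simulated data. The members and the other lists (7 of pathway genes and 12 of markers) were chosen with earlier results of these data known. Besides the members, up to 5 genes per list and comparison past the threshold were to be named, those with the largest change, and the 3 genes most like each member. Depth limits *Mmp9*, *Timp4*, and *Adamts4*. The floors cover counting error only, whereas the SE of the edgeR fits also covers variation between mice. This SE was derived as the absolute log2 fold change over the square root of the F statistic of the quasi-likelihood test. Replicates are mice.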

Additional observations from a re-analysis of the deposited data

Results flagged for a closer look

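In 5 of the 40 sets of values (10 genes in 4 groups), 1 eye stood apart from the others of its group by Dixon's test on CPM. The rate of about 1 in 20 sets by chance holds for normally distributed values in independent sets. These values were not on a log scale and the sets share eyes, so 5 of 40 cannot be set against that rate. *Timp2* reached 1169 CPM in the Nrf2 eye of P40 mouse 4, where the next eye had 925.5. *Timp4* reached 5.206 CPM in the Nrf2 eye of P20 mouse 2, with 0.8644 next. *Adamts4* was high in 3 eyes, with 3.729 CPM in the control eye of P20 mouse 3 (1.557 next), 15.4 in the Nrf2 eye of P20 mouse 2 (3.758 next), and 2.329 in the Nrf2 eye of P40 mouse 3 (0.6411 next).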

How the results depend on the processing

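Over all genes, edgeR called 556 genes with Nrf2 at P20, 762 at P40, 2483 with age in control eyes, 84 with age in Nrf2 eyes, and 1 whose Nrf2 effect differed with age. DESeq2 called 1951, 1380, 4383, 1832, and 12, and limma voom 2605, 1327, 3747, and 2213 in the first 4 of these. Without a filter on low counts, 348 genes were called at P20, and with age 914 (control) and 31 (Nrf2). With 1 mouse or library left out, they ranged from 111 (without mouse 7) to 1999 (without mouse 4) at P20, from 521 to 997 at P40, from 473 (without P20 mouse 5) to 4273 (without P40 mouse 1) in control eyes, and from 21 (without P20 mouse 6) to 190 (without P40 mouse 2) in Nrf2 eyes. Without P20 mice 3 and 4, the age comparisons gave 158 and 20. Of the members, DESeq2 and limma voom called 2 and 3 at P20 and 4 and 4 with age in Nrf2 eyes, and leaving out 1 mouse or library gave 0 to 3 at P20, 1 to 2 at P40, and 1 to 2 with age in control eyes, where 1 was called without P20 mice 3 and 4. Without the block that pairs the eyes of a mouse, 1093 genes were called at P20 and 1 member at P40, *Timp3* being lost. No called value of a member changed its sign under any alternative that was run. The causes of these differences were not tested. *Timp4* and *Adamts4* could not be fitted where at least 10 counts were required in every library, nor could *Mmp9* except between the ages in Nrf2 eyes.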

Other observations

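Among the marker lists not set beside a result, no endothelial or muscle marker was called by edgeR in any comparison. Of the melanocyte and Schwann cell markers *Kit* fell with age in control eyes by 1.25 on the log2 scale, of the blood markers *Alas2* fell by 1.46, and of the Müller glia and astrocyte markers *Abca8a* fell by 1.29.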
